A study of Mus musculus with 25 samples.

Results

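The leucine-rich repeat (LRR) adhesion genes examined here were Lrrtm1, Lrrtm2, Lrrtm3, Lrrtm4, Lrrc4c, Lrrc3b, Lrfn5, Flrt1, Flrt2 and Flrt3, which are 10 of the 37406 genes in the deposited expression table. They were found by gene symbol, and each had 1 row. The set was put together with differences of these data in view, namely posterior oral against nasal, anterior lateral against medial and posterior against anterior, so the levels in those comparisons are described here without a test. The table holds 25 RNA-Seq libraries of wild type CD1 mouse palate at E14.5, shortly after the palatal shelves meet, each made from tissue cut out of sections with a laser (laser capture microdissection, LCM). There were 8 compartments, medial, lateral, oral and nasal tissue from both the anterior and the posterior palate, each with 3 libraries except anterior nasal with 4. No compartment was treated or mutant, and none served as a control. Of the alignments, 4 carry Tgfbr2_WT and 2 carry ERK2_WT in their names, and the sources used here do not say what this marks. Medial and lateral pieces both run from the oral to the nasal side, and oral and nasal pieces both run from the midline outward, so the 2 pairs overlap in space. The labels do not say which libraries share an embryo, and replicates may therefore be less independent than their number.

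LRR adhesion proteins sit in the cell membrane and hold a curved stack of repeats outside the cell, with which they bind a receptor on the neighbouring cell. The Lrrtm proteins are postsynaptic organizers that bind neurexins, and Lrrtm4 also binds glypicans. Lrrc4c (NGL-1) binds netrin-G1, and Lrfn5 (SALM5) binds receptor phosphatases of the LAR type. The Flrt proteins bind latrophilins and Unc5 receptors and also act outside the nervous system, where Unc5 binding makes cells repel each other. Lrrc3b is a smaller LRR membrane protein. The palate at this stage is mostly neural crest mesenchyme, covered by epithelium and entered by nerves and vessels.

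RefSeq promoter windows of build GRCm38.p6, from 250 bases before to 50 bases after the gene start, were matched for 8 of the 10 genes, all but Lrrtm2 and Flrt1. Shown are those of Lrrtm1, Lrrtm3 and Lrrc3b, which were high together in the posterior palate outside the nasal compartment, and that of Lrfn5, which was high in the anterior palate. The windows lie at chr6:77242227-77242526 (+ strand) for Lrrtm1, chr10:64090206-64090505 (- strand) for Lrrtm3, chr14:15438938-15439237 (- strand) for Lrrc3b and chr12:61522917-61523216 (+ strand) for Lrfn5. Letters run 5′ to 3′ along the gene's strand, and capitals mark matches to CANNTG (the E-box letters) and GGGCGG (a GC box), searched on both strands. Also searched were the TATA box letters TATAAA, the binding letters of NF-Y, CCAAT, and the homeodomain core letters TAATTA.
Lrrtm1 promoter: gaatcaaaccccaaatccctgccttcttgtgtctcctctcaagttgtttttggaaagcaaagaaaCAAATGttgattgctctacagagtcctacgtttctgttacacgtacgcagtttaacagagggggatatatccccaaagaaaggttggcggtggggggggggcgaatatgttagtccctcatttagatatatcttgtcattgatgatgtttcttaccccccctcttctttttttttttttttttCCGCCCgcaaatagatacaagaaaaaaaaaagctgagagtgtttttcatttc
Lrrtm3 promoter: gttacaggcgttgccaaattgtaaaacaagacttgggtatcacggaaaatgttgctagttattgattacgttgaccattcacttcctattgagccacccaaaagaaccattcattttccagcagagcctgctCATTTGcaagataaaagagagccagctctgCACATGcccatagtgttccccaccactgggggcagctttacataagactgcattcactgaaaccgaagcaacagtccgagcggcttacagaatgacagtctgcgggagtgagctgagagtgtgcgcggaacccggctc
Lrrc3b promoter: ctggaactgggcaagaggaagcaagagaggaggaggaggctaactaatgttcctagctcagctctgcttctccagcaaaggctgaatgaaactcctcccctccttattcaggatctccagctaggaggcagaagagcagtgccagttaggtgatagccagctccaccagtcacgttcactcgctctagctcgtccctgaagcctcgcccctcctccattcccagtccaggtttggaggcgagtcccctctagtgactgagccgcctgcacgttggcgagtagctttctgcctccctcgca
Lrfn5 promoter: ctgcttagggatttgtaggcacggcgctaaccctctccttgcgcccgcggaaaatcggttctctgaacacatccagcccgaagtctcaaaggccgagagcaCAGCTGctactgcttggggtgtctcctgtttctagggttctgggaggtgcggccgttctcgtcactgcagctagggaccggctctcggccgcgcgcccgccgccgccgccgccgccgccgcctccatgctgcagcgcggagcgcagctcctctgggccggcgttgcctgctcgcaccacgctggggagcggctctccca
The letters CANNTG occurred in 7 of the 8 genes with a window, all but Lrrc3b, and in 72.3% of the 32851 windows of this length in RefSeq. GGGCGG occurred in Lrrtm1 alone among the 8 and in 35.7% of all windows. TATAAA occurred in 1 of 2 windows of Lrrtm4 and in 13.6% of all windows. CCAAT, held by 37.4% of all windows, and TAATTA, held by 5.29%, were in none of the 8. Bases G and C made up 40.7% of the Lrrtm1 window, 48.7% of that of Lrrtm3, 57% of that of Lrrc3b and 67.7% of that of Lrfn5, against a mean of 53.8% over all windows. These matches describe letters only.

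Levels are RPKM (reads divided by transcript length in kilobases and by the library's total), and differences are on the log2(RPKM + 0.1) scale. The values imply 1.64 to 6.56 M (M, 1e6) counted reads per library, with a median of 3.27 M. All 10 palate mesenchyme markers averaged over 1 RPKM, and their summed level was 738 to 1294 RPKM. Posterior medial replicate 2 stood apart, with 12935 genes above 0 against 16330 to 20605 in the others, and values without it are given where it matters. Posterior lateral replicate 1 held the highest sum of skeletal muscle markers, 139 RPKM, against a median of 28.2 over the libraries. Medial and lateral libraries of the same region shared no sequencing run, so in these comparisons run and compartment cannot be told apart. Reads of a cell type that is rarer and of one with less RNA per cell cannot be told apart in such bulk tissue either.

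Over the 25 libraries, Flrt2 had the highest mean level of the set, 55.7 RPKM, followed by Flrt3 at 33.1, Lrrtm1 at 13.3, Flrt1 at 11.2, Lrrtm3 at 8.50, Lrrc4c at 8.33, Lrrc3b at 6.40, Lrrtm2 at 5.67, Lrfn5 at 4.07 and Lrrtm4 at 2.66 RPKM. Lrrtm4 and Lrfn5 each had a compartment with libraries at 0, so no ratio of their compartment means is given. Among the 8 other genes the highest compartment mean was 22.3 times the lowest for Lrrtm3, 11.3 times for Lrrtm1 and 1.39 times for Lrrtm2. Replicates of a compartment also spread widely. The highest replicate of Lrrtm4 in posterior medial was 12.5 times the lowest, and that of Lrrtm3 in posterior lateral 12.1 times, while replicates of Flrt2 never differed by more than 1.73 times.

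Lrrtm1, a neurexin ligand of excitatory synapses, was high in 3 posterior compartments and low elsewhere. Its levels were 29.3, 45.8 and 26.6 RPKM in posterior oral, 50.6, 8.35 and 31.5 in posterior medial, and 17.3, 36.5 and 17.2 in posterior lateral. In posterior nasal they were 4.17, 3.20 and 3.19 RPKM. The posterior nasal libraries thus lay with the anterior ones, below all 9 other posterior libraries. In the anterior palate the levels were 2.23, 6.78 and 14.48 RPKM in oral, 5.73, 3.43 and 3.62 in lateral, 2.77, 2.50, 2.65 and 5.78 in nasal, and 4.196, 2.44 and 2.34 in medial. Ranked by mean, the order ran posterior oral, medial and lateral, then anterior oral and lateral, posterior nasal, anterior nasal and anterior medial. Only posterior lateral and anterior oral, among the 7 pairs of neighbours in that order, did not overlap. The lowest posterior medial value, 8.35, came from the library with few genes, and it was below 1 anterior oral library.

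Lrrtm3, which lies inside Ctnna3, had a similar posterior pattern and was also raised in anterior lateral tissue. It measured 27.7, 16.1 and 14.9 RPKM in posterior medial and 15.2, 12.9 and 9.66 in posterior oral. Posterior lateral varied most, at 33.9, 2.80 and 21.0 RPKM. Posterior nasal gave 1.21, 3.95 and 1.52 RPKM. In the anterior palate it was highest in lateral, at 11.3, 4.59 and 8.40 RPKM, and lowest in medial, at 0.371, 1.67 and 0.587. No neighbours in the order of its 8 means were free of overlap.

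Lrrtm4, which binds glypicans besides neurexins, was the least abundant of the set. Posterior lateral held the highest values, at 24.1, 2.91 and 7.83 RPKM, and the first of these comes from the library with the most skeletal muscle markers, whose part in it was not tested. Posterior medial gave 3.08, 6.90 and 0.553 RPKM and posterior oral 1.43, 2.93 and 3.22. Posterior nasal was at 0.135, 0.586 and 0.799 RPKM. In anterior medial tissue it was close to the limit of detection, at 1.0, 0 and 2.0 reads, and the library at 0 allows up to 0.188 RPKM. Such limits cover counting error only. Lrrtm2, by contrast, was level across the palate, between 2.62 and 8.38 RPKM in all 25 libraries, and both its lowest values were posterior.

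**Figure D1:**
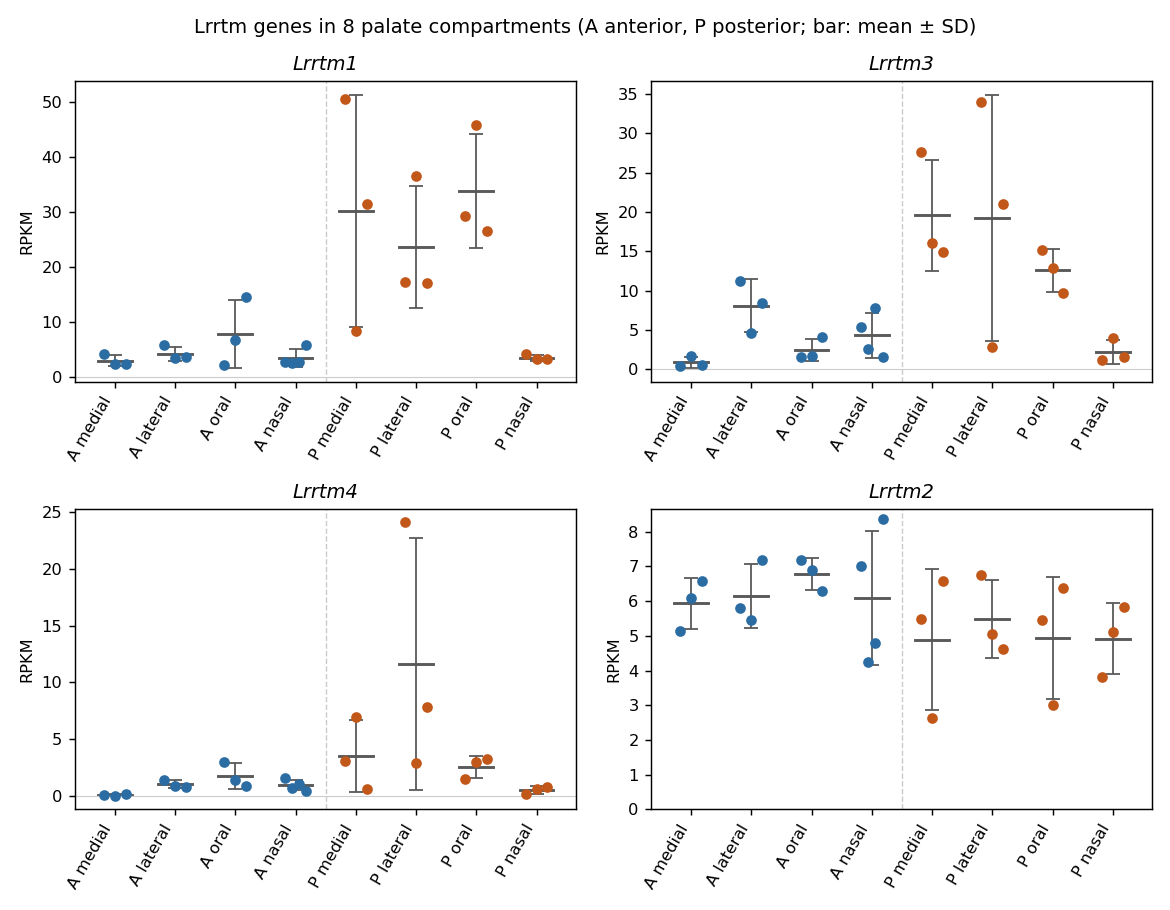
RPKM of the 4 Lrrtm genes (vertical axes, linear) in each library of the 8 compartments (horizontal axes; blue anterior, orange posterior; bars mean ± SD over 3 libraries, 4 for anterior nasal). The posterior medial, lateral and oral libraries of Lrrtm1 lie between 8.35 and 50.6 RPKM, above the 3 posterior nasal ones, and Lrrtm2 is flat.

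Lrrc4c, the netrin-G1 ligand, did not follow the anterior-posterior split. It was highest in anterior oral tissue, at 19.4, 6.87 and 14.8 RPKM, and in posterior oral, at 18.1, 9.62 and 7.08. Anterior lateral gave 13.5, 9.48 and 10.7 RPKM, and anterior nasal 6.60, 8.35, 5.29 and 24.9. Posterior medial, at 10.1, 15.8 and 3.43 RPKM, and posterior lateral, at 4.64, 7.13 and 3.53, were intermediate. The lowest values were those of anterior medial, at 2.12, 0.662 and 2.02 RPKM, and of posterior nasal, at 2.79, 0.923 and 0.661. These 2 low compartments did not overlap posterior lateral, the next in order.

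Lrrc3b was low and even in the anterior palate, with all 13 libraries between 0.996 and 3.28 RPKM. It was higher in posterior oral, at 22.8, 12.7 and 10.2 RPKM, in posterior lateral, at 15.9, 10.3 and 13.6, and in posterior medial, at 24.3, 3.22 and 10.6. Posterior nasal was at the anterior level, with 1.70, 2.12 and 3.47 RPKM. The single posterior medial value inside the anterior range, 3.22, was that of the library with few genes.

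Lrfn5 was the member with the reverse split. It measured 8.42, 8.48, 7.90 and 19.4 RPKM in anterior nasal, 10.7, 7.76 and 8.81 in anterior lateral, and 2.72, 6.52 and 5.86 in anterior oral. Anterior medial was low, at 0.590, 0.147 and 1.40 RPKM. Posterior oral and nasal libraries all lay under 1 RPKM, between 0.393 and 0.995. Posterior medial gave 0.677 RPKM in 1 library and no read in the other 2, which allows up to 0.307 and 0.187 RPKM. Posterior lateral replicate 1 was the exception at 5.997 RPKM, against 0.658 and 1.17 in its replicates.

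**Figure D2:**
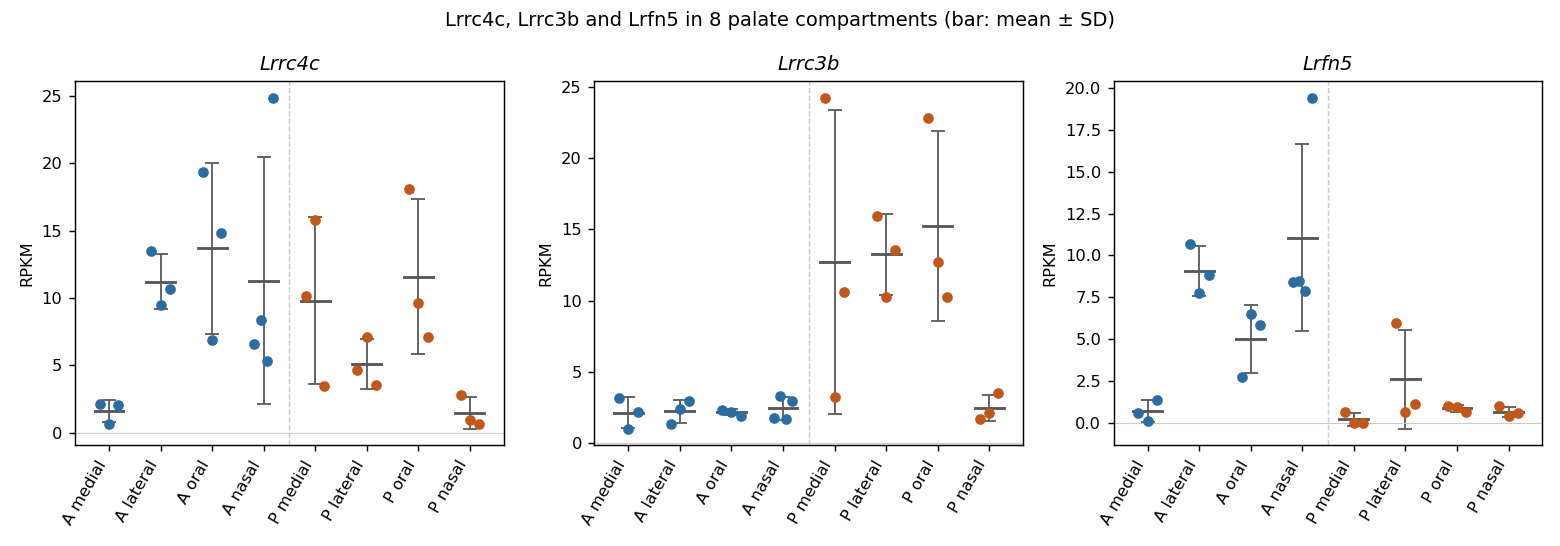
RPKM of Lrrc4c, Lrrc3b and Lrfn5 (vertical axes, linear) in each library of the 8 compartments (blue anterior, orange posterior; bars mean ± SD). Lrrc4c is lowest in anterior medial and posterior nasal, Lrrc3b is at most 3.28 RPKM in all anterior libraries, and Lrfn5 exceeds 1.17 RPKM in 1 posterior library only.

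Flrt2, a ligand of Unc5 and latrophilin receptors, had the steadiest compartment differences. Posterior medial was highest, at 133, 117 and 138 RPKM, followed by posterior lateral, at 90.5, 74.7 and 92.5, and posterior oral, at 72.8, 91.0 and 78.2. Posterior nasal lay lower, at 38.5, 44.5 and 43.0 RPKM. All 13 anterior libraries lay between 21.7 and 37.5 RPKM. In the order of its means, posterior medial did not overlap posterior lateral, posterior oral did not overlap posterior nasal, and posterior nasal did not overlap anterior nasal. Flrt3 was broadly present, between 17.2 and 56.5 RPKM, with its highest mean in posterior medial (42.4 ± 8.89 RPKM, SD, n = 3) and its lowest in anterior medial (23.2 ± 5.94, n = 3). Flrt1 ranged from 3.77 to 23.6 RPKM, and no neighbours in its order of means were free of overlap.

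**Figure D3:**
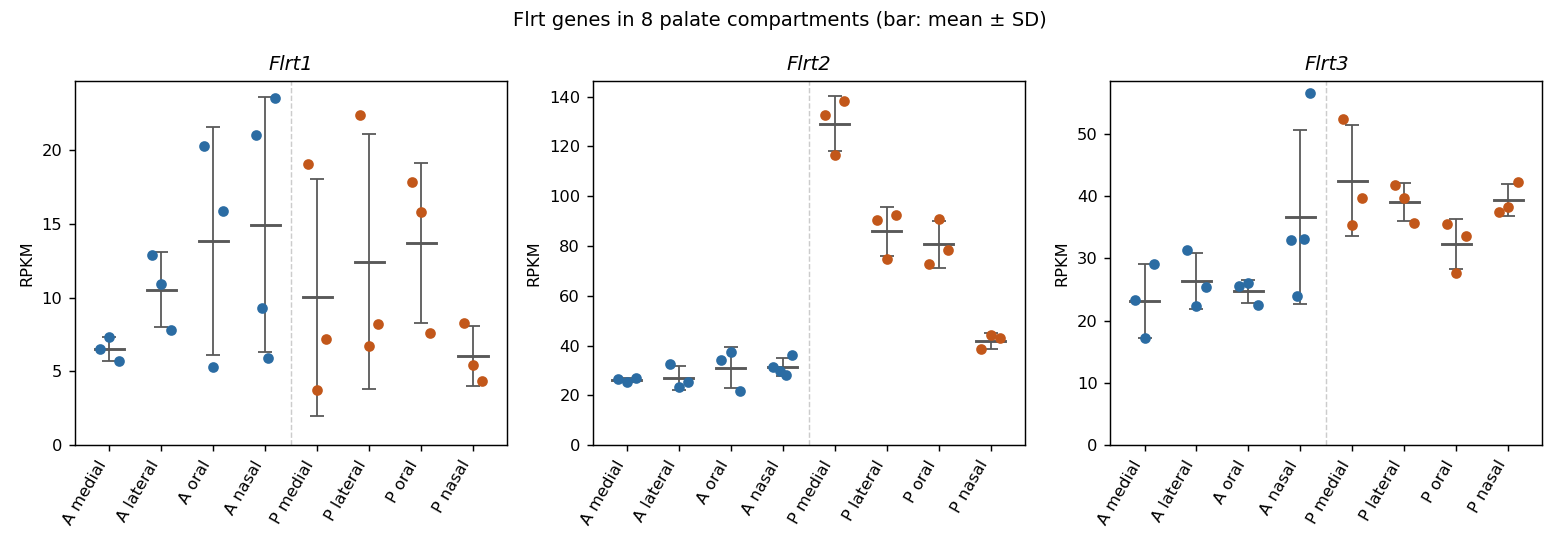
RPKM of Flrt1, Flrt2 and Flrt3 (vertical axes, linear, with a different scale in each panel) in each library of the 8 compartments (blue anterior, orange posterior; bars mean ± SD). Flrt2 forms steps from anterior (at most 37.5 RPKM) to posterior nasal and to posterior medial, whereas Flrt1 replicates spread over most of its range.

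Between oral and nasal tissue of the posterior palate, the values of 7 of the 10 genes did not overlap, 6 higher in oral and 1 lower. Of the 10586 genes tested, 11.8% did not overlap. Of the 14295 genes averaging at least 1 RPKM, which include all 10 members, 13.1% did not overlap. This comparison was used in choosing the set, so nothing is read from the count of members. Lrrtm1 was 9.20-fold higher in oral (log2 difference 3.20 ± 0.26, SE), Lrrc4c 8.26-fold (3.05 ± 0.52), Lrrtm3 6.09-fold (2.61 ± 0.41) and Lrrc3b 5.96-fold (2.58 ± 0.36). Flrt2 was 1.91-fold higher (0.94 ± 0.20). Lrrtm4, below the expression minimum of 5 RPKM in at least 3 samples, was 4.74-fold higher (2.24). Flrt3 was lower in oral, with a log2 difference of -0.29 ± 0.20. Flrt1 had a log2 difference of 1.13 ± 0.37 with overlapping values. Lrrtm2 (-0.04 ± 0.32) and Lrfn5 (0.43, below the minimum) also overlapped. Within sequencing runs, 2 of which hold both tissues, the difference of Lrrtm1 was 2.78 and 3.41, that of Lrrtm3 1.48 and 3.54, that of Lrrc4c 2.65 and 3.03, and that of Lrrc3b 2.37 and 3.67. Those of Lrrtm4 (2.21 and 2.70), Flrt1 (1.00 and 1.09) and Flrt2 (0.92 in both) also kept their direction, as did that of Flrt3 (-0.33 and -0.08).

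Markers of other cell types differed between the same posterior tissues. The 8 Schwann cell markers summed to 35.6 to 46.6 RPKM in posterior oral and 12.5 to 19.9 in nasal. The 8 osteoblast markers ran the other way, at 95.3 to 121 RPKM in oral and 418 to 628 in nasal, and 5 of the 5 tested were lower in oral by limma, among them Sp7, an osteoblast transcription factor (log2 difference -3.08, adjusted p = 0.0046), which lost its call under 4 of 16 alternatives while the other 4 lost theirs under 10 to 13. The 7 endothelial markers summed to 136.9 to 197.6 RPKM in oral and 59.7 to 92.0 in nasal, with a median log2 difference of 1.08, and 1 of the 7 tested was called, Emcn (1.58, adjusted p = 0.040), a call lost under 11 of 16 alternatives. The neuron marker Nefm (1.94 RPKM in oral against 12.2 in nasal), the epithelial Krt18 (1.97 against 6.14) and the cartilage Acan (0.941 against 9.05) were also called lower. Each was the only call of its list, among 5 neuron, 4 epithelial and 4 cartilage markers tested. Nefm, Krt18 and Acan reached the expression minimum only through the nasal libraries, where they are high. Their calls were lost under 9, 8 and 5 of 13 alternatives, among them the fit without a filter. Over all genes tested 132 were called, 1.25%. Neuron markers summed to 53.2 to 82.1 RPKM in oral and 68.9 to 112 in nasal, with no marker at 0 in all libraries of either tissue. Epithelial markers summed to 23.8 to 45.1 RPKM in oral and 36.4 to 72.8 in nasal, and cartilage markers to 65.5 to 108.6 and 91.7 to 142.9. All 3 sums overlapped, and single markers were mixed. Syt1 (5.45 RPKM in oral against 2.09 in nasal) was higher in oral and Tubb3 (6.52 against 12.7) lower, while Krt5 (7.17 against 6.79) and Sox9 (48.5 against 51.3) were nearly level. The part of these cell types in the values of the LRR genes was not tested.

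In the anterior palate, oral and nasal tissue were tested, since the set had not been chosen on them. Of the 7 members that passed the expression minimum none was called, with adjusted p = 0.99992 for each (limma, Benjamini-Hochberg). No gene at all was called among 10684, that is 0%, with 318 at an unadjusted p under 0.05, and 6 were called by a fit over all 25 libraries. Lrfn5 was the only member without overlap, lower in oral (5.03 ± 2.03 RPKM, SD, n = 3) than in nasal (11.1 ± 5.58, n = 4), a log2 difference of -1.10 ± 0.43, where 3.67% of genes tested did not overlap. The log2 difference was 0.89 ± 0.60 for Lrrtm1, 0.44 ± 0.57 for Lrrc4c, 0.20 ± 0.29 for Lrrtm2, -0.10 ± 0.61 for Flrt1, -0.05 ± 0.26 for Flrt2 and -0.50 ± 0.31 for Flrt3. Within the 3 sequencing runs that hold both tissues, the Lrfn5 difference was between -1.71 and -0.27. Anterior and posterior differences between oral and nasal were not tested against each other. Schwann cell markers were higher in anterior oral too, at 49.4 to 71.4 RPKM against 11.1 to 27.8 in nasal.

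Along the medial-lateral axis of the anterior palate, Lrfn5, Lrrtm3, Lrrc4c and Lrrtm4 were higher in lateral tissue. Lrfn5 was 14.4-fold higher (9.08 ± 1.48 RPKM against 0.712 ± 0.635, SD, n = 3 each; log2 difference 3.84 ± 0.57). That difference rests on few medial reads, at 3.16 without anterior medial replicate 2, 4.46 without replicate 3 and 2.61 with a pseudocount of 1. Lrrc4c was 7.30-fold higher (11.2 ± 2.05 RPKM against 1.604 ± 0.817; 2.87 ± 0.40). Lrrtm3, which was below the minimum because anterior lateral replicate 2 gave 4.59 RPKM, was 9.25-fold higher (8.08 ± 3.34 RPKM against 0.875 ± 0.695). Lrrtm4, also below the minimum, averaged 1.02 ± 0.340 RPKM in lateral, and no fold is given since the 3 medial libraries held 3 reads between them. Flrt1 was 1.58-fold higher (0.66 ± 0.20). These 5 of the 10 genes did not overlap, Lrrtm3 and Lrrtm4 among them. Of the 10427 genes tested, 21.3% did not overlap. Of the 14295 genes averaging at least 1 RPKM, which include all 10 members, 21.5% did not overlap. The comparison was used in choosing the set. Lrrtm1, Lrrtm2, Lrrc3b, Flrt2 and Flrt3 overlapped. Schwann cell markers moved the same way, at 35.7 to 44.4 RPKM in lateral against 11.9 to 17.0 in medial, and Sox10, which defines that lineage, measured 6.66 ± 0.837 RPKM in lateral and 1.20 ± 0.447 in medial. Sox10 reached the expression minimum only through the lateral libraries. The sum of the 15 neuron markers was lower in lateral, at 67.8 to 90.4 RPKM against 121 to 165, but single markers were mixed. Gap43 (64.2 against 85.6 RPKM), Prph (3.44 against 33.1) and Tubb3 (1.68 against 8.62) were lower in lateral. Stmn2 (3.32 against 0.601), Nefl (1.38 against 0.795) and Snap25 (2.94 against 2.07) were higher. Only 2 of the 15 reached the expression minimum. Endothelial markers were higher in lateral, at 156.8 to 181.5 RPKM against 107.8 to 133.4, with none of 7 called. Cartilage markers were lower in lateral, at 20.7 to 21.7 RPKM against 67.6 to 108.9, with Sox9 called (-2.36, adjusted p = 0.0022, lost with sequencing run in the fit). Acan was called too, through the medial libraries alone. The part of these lists in the values of the LRR genes was not tested.

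In the posterior palate, lateral and medial tissue were tested and no member was called. Adjusted p was at least 0.957 for the 9 members that passed the minimum (limma). No gene among 10324 was called, 0%, with 159 at an unadjusted p under 0.05, and 25 were called by the fit over all 25 libraries. Flrt2 was the only member without overlap, lower in lateral (85.9 ± 9.76 RPKM, SD, n = 3) than in medial (129 ± 11.2, n = 3), a log2 difference of -0.59 ± 0.26, where 6.62% of genes tested did not overlap. Standard errors were large for the others, up to 1.08 for Lrrtm4, whose log2 difference was 1.77 and ranged from 0.82 to 2.50 without 1 library. Without posterior medial replicate 2, the difference of Lrrtm1 changed from -0.10 to -0.85, that of Lrrc3b from 0.46 to -0.30 and that of Flrt2 from -0.59 to -0.66. The p-values of the tested comparisons take all libraries as independent. Embryos shared within a compartment would make them too small, and embryos shared between the 2 compartments could make them too large.

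**Figure D4:**
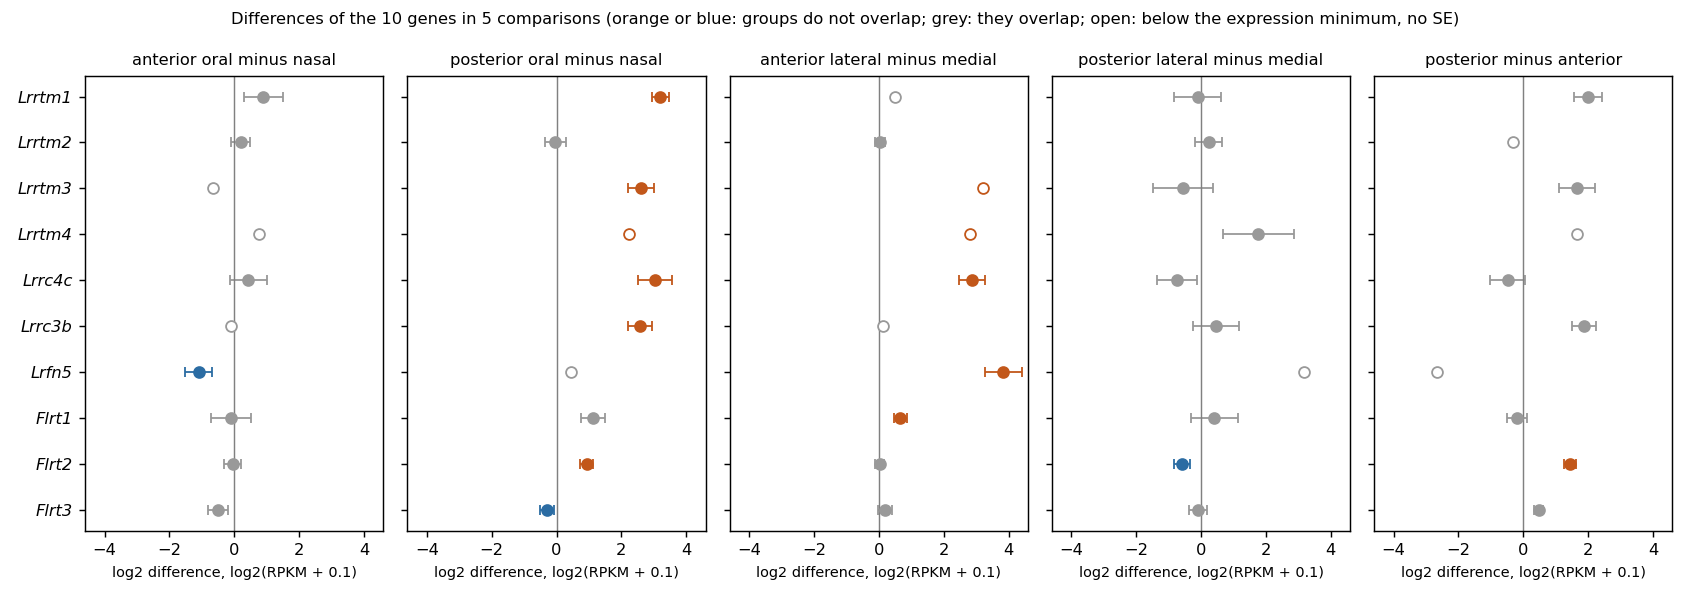
Log2 difference of each gene (horizontal axes, log2(RPKM + 0.1) scale, bars SE) in the 5 comparisons; colour marks groups whose values do not overlap, and open circles mark genes below the expression minimum, which have no SE. Posterior oral minus nasal shows 7 coloured genes, and anterior oral minus nasal and posterior lateral minus medial show 1 each; the open circle of Lrfn5 in posterior lateral minus medial depends on 2 libraries at 0.

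From anterior to posterior, Flrt2 alone separated all 12 posterior from all 13 anterior libraries (84.4 ± 33.1 against 29.2 ± 4.97 RPKM, SD; log2 difference 1.43 ± 0.18), where 0.267% of 8608 genes did. The separation rests on a gap from 37.5 to 38.5 RPKM and was lost after centring on the median or quantile normalization. The mean log2 difference was 2.00 ± 0.44 for Lrrtm1, 1.87 ± 0.36 for Lrrc3b, 1.66 ± 0.56 for Lrrtm3 and 0.47 ± 0.13 for Flrt3. Lrrtm4 (1.65), Lrfn5 (-2.65) and Lrrtm2 (-0.33) were below the minimum of 10 RPKM in at least 6 samples. Lrrc4c (-0.48 ± 0.54) and Flrt1 (-0.19 ± 0.31) overlapped widely. This comparison, too, was used in choosing the set.

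Compartment by compartment, the posterior excess was absent from nasal tissue for most of the set. In medial tissue 7 of the 10 genes lay higher in all posterior than in all anterior libraries, where 11.9% of genes tested did not overlap in either direction. In lateral tissue 5 were higher and 2 lower (18.9% of genes), and in oral tissue 5 were higher and 1 lower (8.26%). In nasal tissue Flrt2 alone was higher and Lrrc4c and Lrfn5 were lower (20.3%). The member counts take in genes below the expression minimum, such as Lrrtm4 in medial tissue, and the shares do not. Anterior to posterior values were used in choosing the set, so nothing is read from these counts. Lrrtm1 had log2 differences of 3.00 in medial, 2.39 in lateral and 2.42 in oral tissue but 0.11 in nasal. Lrrc3b had 2.24, 2.57 and 2.70 in those compartments and 0.00 in nasal. Lrrtm3 ran from 4.51 in medial to -0.86 in nasal. Lrfn5 was lower at the posterior end in lateral (-2.34), oral (-2.32) and nasal tissue (-3.86). Lrrc4c changed sign, at 2.44 in medial, -1.16 in lateral, -0.22 in oral and -2.83 in nasal.

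These contrasts could be checked within 1 sequencing run per compartment, with few libraries. In oral and in nasal tissue 1 library stood against 1. The anterior nasal one was replicate 4, flagged below for Lrrtm1, Lrrc4c and Lrfn5. The medial check includes posterior medial replicate 2, the library with few genes. Within these runs the posterior minus anterior difference of Lrrtm1 was 2.46 in medial, 2.76 in lateral, 1.01 in oral and -0.46 in nasal tissue. That of Lrrc3b was 1.57, 1.96, 3.51 and -0.76, and that of Flrt2 was 2.27, 1.71, 1.74 and 0.08, in the same order. For Lrrtm3 it was 4.23, -0.12, 1.85 and -0.30. Lrfn5 was lower at the posterior end in all 4, by log2 differences from -2.44 to -4.16. The low posterior nasal level of Lrrtm1, Lrrc4c and Flrt2 was present in every library, since all 3 nasal values lay under all 9 other posterior ones, where 1.35% of genes did so in this direction. Posterior oral against nasal values were used in choosing the set, so nothing is read from that share.

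The known partners of these proteins were present in the same tissue. Of the 16 binding partners examined, 13 averaged at least 1 RPKM over the 25 libraries. Ptprd, a LAR-type phosphatase that Lrfn5 binds, averaged 76.6 RPKM, Ptprs 45.3 and Ptprf 22.5. The FGF receptor Fgfr1, an Flrt partner, averaged 66.2 RPKM. The latrophilins Adgrl2 (listed as Lphn2), Adgrl1 and Adgrl3 averaged 56.6, 41.1 and 28.2 RPKM. The Unc5 receptors Unc5c, Unc5d and Unc5b averaged 23.9, 9.65 and 7.80 RPKM, and Unc5a 0.289. The glypican Gpc4 averaged 42.3 RPKM and the netrin-G1 gene Ntng1 7.08. Nrxn3 and Nrxn2, which encode partners of Lrrtm proteins, averaged 0.342 and 0.28 RPKM.

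Ntng1, the gene of the Lrrc4c partner, was higher in anterior lateral tissue. Its level was 6.27 ± 0.680 RPKM in lateral against 1.40 ± 0.284 in medial (SD, n = 3 each), a log2 difference of 2.10 ± 0.16 with adjusted p = 0.0017 (limma), higher in all 3 lateral libraries. Unc5b was also higher in lateral (1.40 ± 0.14, adjusted p = 0.0042) and Unc5c lower (-1.45 ± 0.16, adjusted p = 0.0051). Ntng1 and Unc5b reached the expression minimum only through the lateral libraries, where they are high, so a difference was built into their being tested. Both kept their call without a filter and fell below the minimum when any 1 lateral library was left out. In all, 2 of the 13 partners tested were higher and 1 lower, with a median log2 difference of 0.08 against -0.03 over all genes tested, of which 2.51% were called. These 3 calls were lost, with adjusted p up to 1, when sequencing run was added to a fit over all libraries, and also in that fit without run. In posterior oral against nasal tissue none of 12 partners tested was called. Ntng1, below the minimum there, measured 5.27 ± 0.371 RPKM in oral and 2.45 ± 0.278 in nasal. In anterior oral against nasal and posterior lateral against medial none of 13 was called.

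From anterior to posterior 1 of 11 partners tested was called. The fit had no term for compartment and took the 12 posterior and 13 anterior libraries as independent. The fit over all 25 libraries, one of the alternatives, does separate the 8 compartments. Adgrl2 was lower in posterior tissue (40.8 ± 9.24 RPKM, SD, n = 12) than in anterior (71.3 ± 10.2, n = 13), a log2 difference of -0.83 ± 0.13 with adjusted p = 0.00017, which kept its call under all 34 alternatives. Over all genes 3.32% were called, 143 higher and 143 lower, or 114 and 179 after centring on the median.

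Related LRR adhesion genes mostly showed no call. Of 32 such genes (the other Lrfn, Lrrc4 and Lrrc3 genes and the Slitrk, Lrrn, Lingo, Amigo, Elfn, Lrig and Nogo receptor families), 23 averaged at least 1 RPKM, led by Slitrk6 at 35.4, Lrrn1 at 32.7 and Lrig3 at 30.4. Lingo2 was higher in posterior oral than nasal tissue (12.9 ± 5.41 against 3.15 ± 0.452 RPKM, SD, n = 3 each; log2 difference 1.93 ± 0.31, adjusted p = 0.030), the 1 call among 14 tested. Lingo2 reached the expression minimum only through the oral libraries, where it is high. That call was lost without a filter and under 8 of 13 alternatives in all, with adjusted p up to 0.168, among them those with sequencing run and those leaving out any 1 nasal library. Lrig3, an LRR protein that modulates growth factor receptors, was higher in posterior tissue (0.54 ± 0.13, adjusted p = 0.017), the 1 call among 11 tested, and lost that call only with sequencing run in the fit (adjusted p = 0.226). The median log2 difference of the list was 0.37 in posterior oral minus nasal and 0.22 in posterior minus anterior, against -0.01 and 0.03 over all genes tested. No gene of the list was called in the 3 other comparisons. Of 13 postsynaptic partners, neuroligins and scaffolds that face neurexins or anchor receptors, none was called in the 5 comparisons, and Nlgn2, Dlg1 and Dlg4 had the highest means, at 25.4, 25.1 and 22.9 RPKM.

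Several members lie inside other genes in the authors' annotation. On the mm9 coordinates of the table, Lrrtm1 (chr6:77192711-77207785) lies in Ctnna2, Lrrtm3 (chr10:63391245-63553003) in Ctnna3, Flrt1 (chr19:7166502-7180219) in Macrod1, Flrt3 (chr2:140483934-140497212) in Macrod2, and Lrrtm2 in Ctnna1. The sources used here do not say that strand was used in counting, so reads from unspliced host transcripts cannot be told from member reads. Of the host genes Ctnna1, Ctnna2 and Macrod2 had the highest means, at 46.2, 5.69 and 2.55 RPKM, and of the 1 or 2 that could be tested in each comparison none was called. Across the 25 libraries the log2 level of Lrrtm1 had a Pearson r of -0.55 with Ctnna2, that of Lrrtm3 0.21 with Ctnna3, that of Lrrtm2 0.63 with Ctnna1, that of Flrt1 -0.34 with Macrod1, and that of Flrt3 0.38 with Macrod2. Libraries share depth, run and compartment, so these values describe only.

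Within the set, levels across the 25 libraries were most alike for Lrrtm1 and Lrrc3b (Pearson r = 0.86 of log2 levels), Lrrc3b and Flrt2 (0.825), Lrrtm1 and Flrt2 (0.80) and Lrrtm3 and Lrrtm4 (0.74). Lrfn5 ran most opposite to Flrt2 (-0.57). The genes most like each member by the same measure were sought among 11913 expressed genes (5 RPKM or more in 3 or more libraries). For Lrrtm1 they were Phactr1 (0.88), Prkce (0.88) and Aak1 (0.81), and for Lrrc3b Phactr1 (0.89), Cdh18 (0.86) and Prkce (0.82). For Flrt2 they were Meox2 (0.95), Tbx22 (0.90) and Cdh18 (0.90), of which the first and second encode transcription factors. For Lrrtm3 they were Pcdh10 (0.87), Slc19a2 (0.82) and Pam (0.82), and for Lrrtm4 Kcnt2 (0.89), Nlgn1 (0.83) and Wnt11 (0.82). For Lrrc4c they were Vipr2 (0.78), St6gal1 (0.77) and Sox10 (0.76), the last a Schwann cell marker. For Lrfn5 they were Sgcz (0.85), Gabra4 (0.84) and Gkn3 (0.82). For Flrt1 they were St8sia2 (0.90), Astn1 (0.87) and D630045J12Rik (0.83), for Flrt3 Prdm6 (0.75), Hpgd (0.73) and Nefm (0.72), and for Lrrtm2 Atg10 (0.82), Nipbl (0.81) and Kif2a (0.81).

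**Figure D5:**
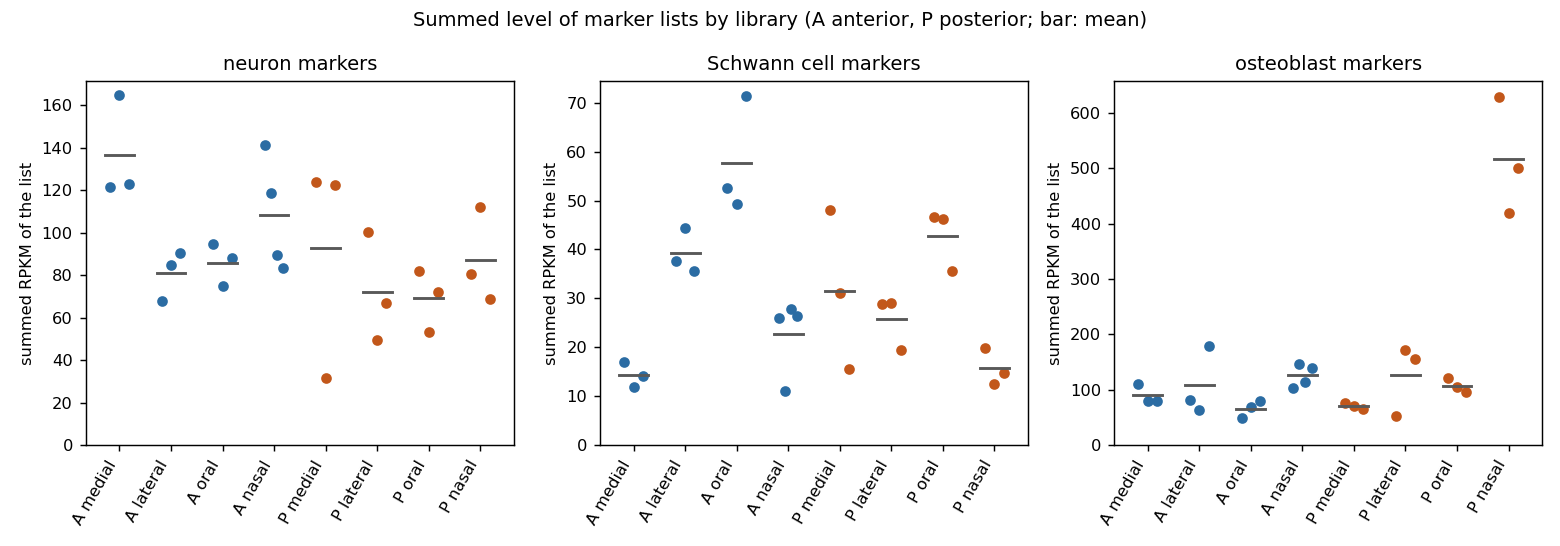
Summed RPKM (vertical axes, linear from 0) of the neuron, Schwann cell and osteoblast marker lists in each library of the 8 compartments (blue anterior, orange posterior; bars mean). Schwann cell markers are low in anterior medial and posterior nasal, where Lrrc4c was lowest. The lowest single value, 11.1 RPKM, is anterior nasal replicate 2, in which Lrrc4c was 8.35 RPKM. The part of Schwann cells in the level of Lrrc4c was not tested. Osteoblast markers reach 418 to 628 RPKM in posterior nasal.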

How the data were processed

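RNA of LCM tissue was purified, amplified (NuGEN Ovation V2), tagmented (Nextera) and sequenced single-end at 50 bases. The authors deposited RPKM values for 37406 genes in 25 libraries, made with GeneSpring 12.6.1 after removing duplicate reads and reads aligned more than once. The submitters' processing notes name TopHat and mm9. How duplicate removal and amplification changed the levels was not tested. Gene annotation and strand are not given in the sources used here. Read totals were worked out from the spacing of low RPKM values (53.6% of 19317 genes gave whole base units within a tolerance of 0.02 units), giving 1.64 to 6.56 M (1e6) reads per library.

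The condition and replicate number came from the labels and the sequencing run from alignment names. Comparisons used limma 3.58.1 (lmFit, eBayes) in R 4.3.3 on log2(RPKM + 0.1), keeping genes that reached 5 RPKM in 3 or more compared samples (10 RPKM in 6 or more for posterior against anterior), and Benjamini-Hochberg adjustment over all genes tested. A gene was called at an adjusted p under 0.05. The main fit of posterior against anterior had no term for compartment. Values of 2 groups were said not to overlap when every library of 1 group lay above every library of the other. The test was tried on simulated data. The study's methods use a pooled read test for the anterior to posterior comparison, which was not used here because it ignores the spread between libraries. Python 3.11.15, numpy 2.4.6, pandas 2.3.3 and matplotlib 3.10.9 made tables and figures.

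Genes named were all members and binding partners (1 item is not reported here), the 3 most abundant and any called of the related LRR, postsynaptic and host genes, and the 3 genes most correlated with each member. Members, lists and this rule were chosen with earlier results of these data known. Other markers named were chosen after their values were seen. Same-numbered libraries of anterior oral and nasal tissue deviated together (correlations of 0.239, 0.215 and 0.130 across genes). The labels state no pairing, and only 1 of these pairs shares a run. Correlations were 0.226, 0.036 and 0.277 for posterior lateral and medial, and 0.218, -0.076 and 0.418 for posterior oral and nasal. For anterior lateral and medial they were 0.004, -0.155 and 0.007. All main fits were unpaired, and the replicate number entered only as a block among the alternatives. Alternatives were pseudocounts of 1 and 0.01, no filter or a mean of at least 1 RPKM, centring, quantile normalization, a fit over all 25 libraries with and without run, replicate and run blocks, and leaving out each library.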

Additional observations from a re-analysis of the deposited data

Results flagged for a closer look

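In anterior nasal tissue, the only compartment with 4 libraries, replicate 4 lay far above the other 3 for Lrrtm1 (5.78 RPKM), Lrrc4c (24.9 RPKM) and Lrfn5 (19.4 RPKM), by Dixon's criterion. The criterion was applied to the 10 genes, each in these same 4 libraries, and chance marks about 1 in 20 groups. Because the genes share the libraries, the flags are not independent of each other. This library is the only anterior nasal one of its sequencing run, and with 4.07 M (1e6) implied reads it was the deepest of the 4. Without it the oral minus nasal log2 difference of Lrrc4c rose from 0.44 to 0.91. Leaving out any 1 library of the comparison, that of Lrrtm1 was between 0.78 and 1.59 and that of Lrfn5 between -1.33 and -0.72.

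The posterior minus anterior difference of Lrrc4c ran in opposite directions in 3 compartments, with every posterior library on one side of every anterior one. It was 2.44 in medial, -1.16 in lateral and -2.83 in nasal tissue on the log2 scale. The difference between compartments was not tested, and the set was chosen with anterior to posterior values in view. Within 1 sequencing run each, it was 2.29 in medial, -1.07 in lateral and -3.11 in nasal tissue. The nasal value sets 1 library against 1, and the anterior one is replicate 4, flagged above for Lrrc4c.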

How the results depend on the processing

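For posterior oral against nasal, 132 genes were called, but 11 without a filter, 68 in the fit over all 25 libraries, 15 in that fit with sequencing run, 15 with run as a block within the comparison (an alternative chosen after seeing the data), and 12 to 57 when any 1 of the 6 libraries was left out. For anterior lateral against medial, 262 became 157 without a filter, 157 with the replicate number as a block, 31 over all libraries, 0 with run (154 at an unadjusted p under 0.05), and 55 to 195 without 1 library, moving by over 1.5 times for each of the 6 libraries except anterior medial replicate 3 (195). For anterior oral against nasal, 0 became 6 over all libraries, 4 with run and 0 to 6 without 1 library, the 6 without anterior oral replicate 1. For posterior lateral against medial, 0 became 1 at a mean of at least 1 RPKM, 25 over all libraries, 1 with run, and 0 to 1 without 1 library. For posterior against anterior, 286 became 485 without a filter, 524 at a mean of at least 1 RPKM and 143 with run, with 231 to 414 without 1 library. With the replicate number as a block, anterior oral against nasal also had 0 calls. The same block called 90, 0 and 267 for posterior oral against nasal, posterior lateral against medial and posterior against anterior.

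Members without overlap changed from 1 to 0 for posterior against anterior under median centring and under quantile normalization. They numbered 1 to 2 without 1 library in anterior oral against nasal, and 1 to 3 in posterior lateral against medial. Members whose values did not overlap in a comparison kept their sign there under every alternative run, while members with small differences changed sign in places, for example Lrrtm3 in posterior lateral minus medial tissue (-0.57, or 0.50 without posterior lateral replicate 2). The log2 differences of low genes depend on the pseudocount, as for Lrrtm4 in anterior lateral minus medial tissue, which ranged from 0.91 with a pseudocount of 1 to 4.42 with 0.01.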

Other observations

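In some compartments 1 library held the highest value for most of the set. Anterior lateral replicate 1 was the highest of its 3 replicates for 8 of the 10 genes, where it was highest for 33% of the 14295 genes averaging at least 1 RPKM. Posterior lateral replicate 1 was the highest for 7 (37.4% of genes), posterior medial replicate 1 for 6 (34.4%), posterior oral replicate 1 for 6 (34.1%) and, of 4, anterior nasal replicate 4 for 7 (30.1%). In the other compartments the most was 5, in anterior medial replicate 3 and anterior oral replicate 1, and 4, in posterior nasal replicates 1 and 3. The libraries named were picked for holding the most members, whereas each share is that of 1 library, so nothing is read from the counts. Flrt1 was highest in all 4 of the posterior replicates numbered 1, at 19.1, 22.4, 17.8 and 8.31 RPKM, which had 5.45 to 6.25 M (1e6) implied reads against 2.33 to 3.86 M in the other posterior libraries. In the anterior palate its highest library had 3.28 M reads in medial, 2.79 M in lateral, 1.64 M in oral and 4.07 M in nasal tissue. The other anterior oral libraries had 3.49 and 6.56 M. The part of depth and run in these levels was not tested.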
